A study of Mus musculus with 24 samples.

Results

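Plasmalogens are ether phospholipids, and 7 genes of their synthesis and breakdown were followed here in the kidney of mice that lost the peroxisomal import receptor gene Pex5 in the renal tubule: Gnpat, Agps, Far1, Far2, Tmem189, Tmem86a and Tmem86b. The genes were chosen by symbol from what their products are known to do, with earlier results of these data known. They are 7 of the 55335 genes listed in each file. All but Far2 were among the 16092 genes that reached at least 1 CPM in 1 kidney or more and were tested. CPM is a read count scaled for library size. The filter used plain library sizes, and the levels given below were scaled with edgeR's TMM factors. In kidneys of cKOm mice, transcripts of Agps, Far1 and Tmem189 were lower than in Ctrlm mice, by 1.13, 0.46 and 0.71 on the log2 scale, while no tested member passed the threshold of 0.05 on the adjusted p between cKOf and Ctrlf mice.

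The synthesis of ether lipids starts inside the peroxisome, where GNPAT puts a fatty acid on dihydroxyacetone phosphate and AGPS exchanges that fatty acid for a fatty alcohol, which creates the ether bond. FAR1 and FAR2, anchored in the peroxisomal membrane, make the fatty alcohol from fatty acyl-CoA. The later steps run in the endoplasmic reticulum, where the desaturase encoded by Tmem189 introduces the vinyl ether bond that defines a plasmalogen, and the lysoplasmalogenases encoded by Tmem86b and Tmem86a split that bond once the acyl chain beside it has been removed. GNPAT carries the import signal PTS1, which PEX5 reads directly, and AGPS carries PTS2, which is read by PEX7 with PEX5 as its partner. Kidney is among the tissues in which ethanolamine plasmalogens form part of cell membranes.

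RNA from whole kidneys of 24 mice on the C57BL/6J background was sequenced, 6 in each of 4 groups. The cKOm (male) and cKOf (female) mice carried Pex5 lox/lox together with the Pax8-rtTA and LC1 transgenes, by which doxycycline (DOX) turns on Cre in the renal tubule. The Ctrlm and Ctrlf mice were littermates with Pex5 lox/lox and neither transgene, so that the deletion and the carriage of the transgenes cannot be told apart. All mice received DOX for 2 weeks, beginning when they were 8 weeks old, and were killed 4 weeks after its end, at Zeitgeber time 3 by one protocol of the labels and at 9 by another. The deletion was made in tubule cells, whereas reads came from all cells of the kidney, and in such bulk RNA fewer cells of a type and less RNA per cell cannot be told apart.

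The promoters of Agps and Far1, 2 peroxisomal synthesis genes that moved together in males, are shown first, as the 250 bases before the RefSeq transcription start in GRCm38.p6, 5′ to 3′ on the strand of the gene. Capitals mark CCAAT boxes (CCAAT, or ATTGG on the opposite strand) and GC boxes (GGGCGG, or CCGCCC on the opposite strand).
Agps, chr2:75831927-75832176, plus strand: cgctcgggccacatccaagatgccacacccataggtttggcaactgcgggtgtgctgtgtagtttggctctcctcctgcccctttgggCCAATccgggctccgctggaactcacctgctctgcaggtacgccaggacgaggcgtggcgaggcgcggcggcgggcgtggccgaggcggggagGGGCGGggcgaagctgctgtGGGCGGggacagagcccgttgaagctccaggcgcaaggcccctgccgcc
Far1, chr7:113513584-113513833, plus strand: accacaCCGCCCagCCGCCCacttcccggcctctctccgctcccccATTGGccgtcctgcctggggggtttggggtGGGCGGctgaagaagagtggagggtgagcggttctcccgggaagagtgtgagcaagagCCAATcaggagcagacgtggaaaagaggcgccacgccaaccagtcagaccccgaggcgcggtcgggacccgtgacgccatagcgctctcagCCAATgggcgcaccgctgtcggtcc
The Agps window held 1 CCAAT box and 2 GC boxes and had a GC content of 70.0%. The Far1 window held 3 CCAAT boxes and 3 GC boxes at 67.6% GC. The windows of Gnpat and Tmem86a, not called in males, had 67.6% and 66.8% GC and 1 GC box each. That of Far2, which was not tested, had 67.2% GC and 2 GC boxes. The window of Tmem86a also held 1 CCAAT box, and those of Gnpat and Far2 held none. That of Tmem86b, not called either, had 50% GC, 1 CCAAT box and no GC box. Tmem189, which was called, had no entry in the promoter table. Of 32851 mouse promoters of the same length, 33.8% held a CCAAT box and 32.7% a GC box on either strand, and the median GC content was 52.4%. AGGTCA, one arm of many nuclear receptor elements and present in 14.02% of promoters, AGAACA, one arm of the androgen receptor element and present in 16.1%, and the TATA letters TATAAA, present in 12.4%, were searched on both strands and were not among the letters of these 2 windows. Among the 6 members with an entry in the promoter table, the only one of these last 3 motifs found was an AGAACA in the window of Tmem86b. The letters describe the windows and carry no measurement of binding.

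The kidneys had between 19376152 and 28470831 reads counted on genes. Pex5, the targeted gene, was at 54.3 ± 4.63 CPM in Ctrlm and 43.7 ± 1.94 in cKOm kidneys, and at 50.3 ± 6.97 in Ctrlf and 43.6 ± 3.55 in cKOf kidneys (mean ± SD, n = 6), over all of its exons, inside and outside the deleted stretch. Its male change was -0.31 on the log2 scale (edgeR, adjusted p = 0.0219), a call lost without Ctrlm 2 (adjusted p = 0.0656) or cKOm 4 (adjusted p = 0.0504), and its female change was -0.21 (adjusted p = 0.177). In both cKOm and cKOf mice the study found lower plasmalogens in the kidney and, by electron microscopy, almost no peroxisomes in proximal tubules. In cKOf kidneys it also found residual full-length Pex5 mRNA and detectable PEX5 protein. It proposes incomplete excision there, and does not exclude that peroxisomes act differently by sex. Sex and the extent of the deletion therefore cannot be told apart where male and female changes are compared. Summed proximal tubule markers, present in every kidney, ranged from 9461 to 10477 CPM in Ctrlm and from 8236 to 9023 in cKOm kidneys, with 3 of 8 markers lower by the edgeR test. Hepatocyte transcripts, 12 markers of another organ, summed to 888 to 1349 CPM in Ctrlm 1 to 4, to 851 in cKOm 4 and to 382 to 523 in the other male kidneys, with 3 of 12 lower and 1 higher in cKOm mice. Ctrlf 1 stood apart in interferon response transcripts (444 CPM against 128 to 162 in the other Ctrlf kidneys), and Ctrlf 6 in adipocyte transcripts (363 against 38.5 to 51.1 CPM). Adrenal cortex markers were near 0, with 4 of 5 under 1 CPM in every kidney.

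Agps encodes the enzyme that forms the ether bond and lies on chromosome 2 of GRCm38 from 75832177 to 75931350, plus strand, and no 50-base stretch of its transcripts is found in another gene. In Ctrlm kidneys its transcript level was 383 to 488 CPM with a median of 420.4, and in cKOm kidneys it was 179 to 203 CPM with a median of 194. The lowest Ctrlm mouse was thus well above the highest cKOm mouse. The means were 423 ± 35.5 and 193 ± 8.34 CPM (SD, n = 6), 2.19-fold lower in cKOm mice, with a log2 fold change of -1.13 ± 0.11 (SE, adjusted p = 1.59e-07 in edgeR). The SE, a standard error, was derived as the size of the log2 fold change over the square root of the F statistic of edgeR's test. A two-sided exact permutation test over the 924 arrangements of 12 mice gave p = 0.00216, its smallest possible p. In females, Agps stood at 98.0 to 165 CPM (median 126) in Ctrlf and at 83.1 to 141 CPM (median 116) in cKOf kidneys. These groups overlapped, with a log2 fold change of -0.15 ± 0.11 (SE, adjusted p = 0.599 in edgeR). The male and female changes differed by -0.98 on the log2 scale (interaction term of edgeR, adjusted p = 5.16e-04), or 1.98-fold.

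**Figure D1:**
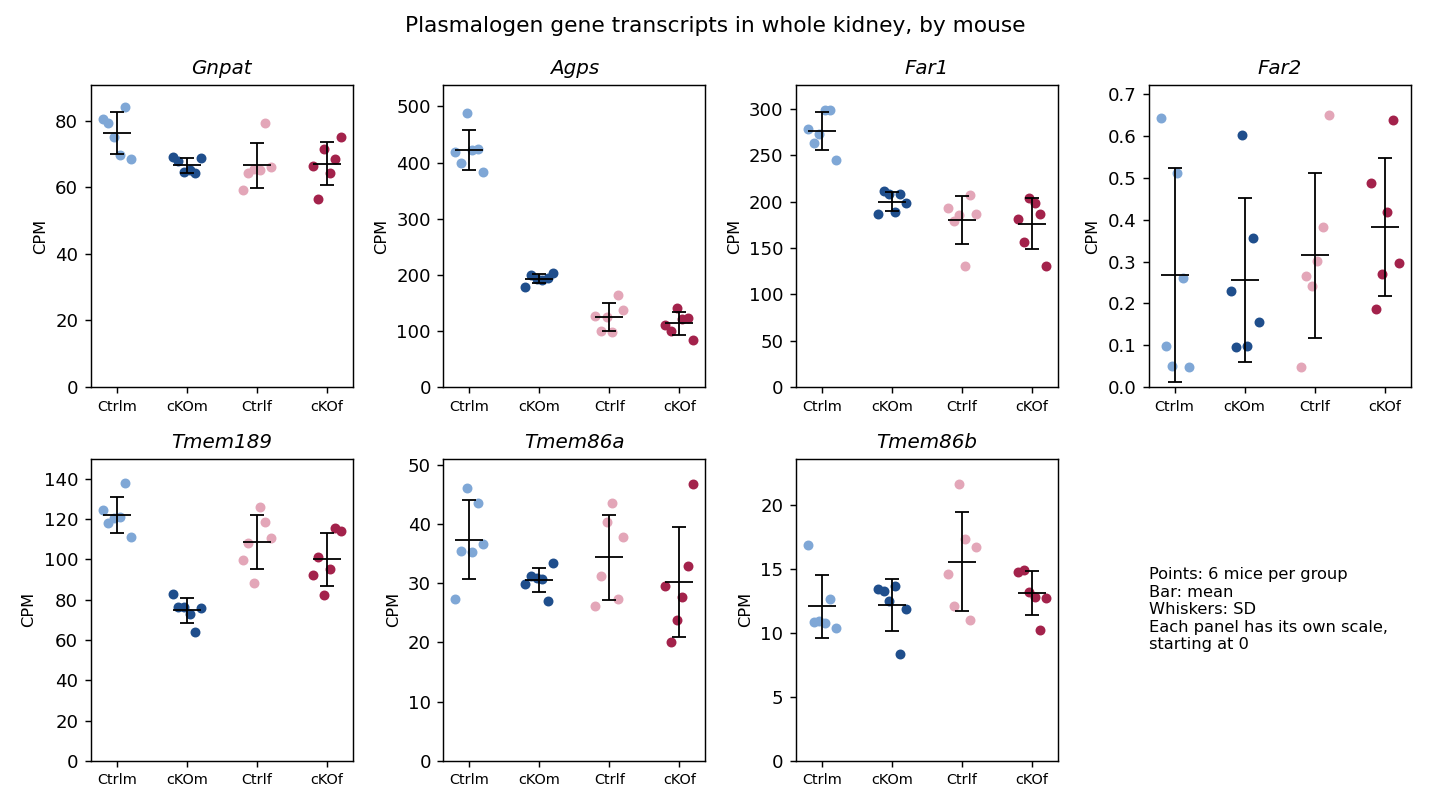
Transcript levels in CPM (vertical axes, each from 0) of the 7 genes in each of 24 kidneys, by group; points are mice, bars are means and whiskers are SD (n = 6). Agps levels in cKOm mice (179 to 203 CPM) lie below those of every Ctrlm mouse (383 to 488 CPM) and above those of every female mouse (83.1 to 165 CPM), and Far2 stays under 1 CPM in all kidneys.

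Gnpat encodes the acyltransferase that precedes AGPS and works beside it in the peroxisome. It lies on chromosome 8 from 124863033 to 124890057, plus strand, and 6.37% of the 50-base stretches of its transcripts are shared with the neighbouring genes Gm16163 and 2810004N23Rik. Gnpat was at 68.4 to 84.2 CPM (median 77.2) in Ctrlm and at 64.4 to 69.2 CPM (median 66.5) in cKOm kidneys. The groups overlapped, although 4 of 6 cKOm mice were below every Ctrlm mouse (unadjusted p = 0.00866 by the two-sided exact permutation test). In the fit over all genes Gnpat differed by -0.19 on the log2 scale with an SE of 0.08 (adjusted p = 0.176 in edgeR), which did not pass. In females it was at 59.1 to 79.4 CPM (median 65.3) in Ctrlf and 56.4 to 75.2 CPM (median 67.3) in cKOf kidneys, with a log2 fold change of 0.01 ± 0.08 (SE, adjusted p = 0.977 in edgeR).

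Far1, the reductase that supplies most of the fatty alcohol for ether lipids, lies on chromosome 7 from 113513834 to 113571511, plus strand. In males it was at 245 to 299 CPM (median 275) in Ctrlm and at 187 to 211 CPM (median 203) in cKOm kidneys, again without overlap. The mean level was 276 ± 20.8 CPM in Ctrlm and 200.1 ± 10.6 CPM in cKOm mice (SD, n = 6), 1.38-fold lower, with a log2 fold change of -0.46 ± 0.10 (SE, adjusted p = 0.00400 in edgeR, exact permutation p = 0.00216). Without the 5 male mice highest in hepatocyte transcripts, a choice made after seeing the data, the log2 fold change was -0.46 with an adjusted p of 0.153. In females it was at 130.4 to 207 CPM (median 186) in Ctrlf and 131 to 204 CPM (median 184) in cKOf kidneys, nearly the same range. The female change was -0.03 on the log2 scale with an SE of 0.10 (adjusted p = 0.931 in edgeR). The male change less the female change was -0.43, which did not pass (edgeR's interaction term, adjusted p = 0.120). It passed in 1 of 24 fits without 1 mouse, that without cKOf 6 (-0.51, adjusted p = 0.0276). In 9 other settings the adjusted p was 0.0529 to 0.300.

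Far2, the other fatty acyl-CoA reductase, lies on chromosome 6 from 148047259 to 148182758, plus strand. It had 1 to 16 reads per kidney, or 0.0476 to 0.650 CPM, and was not tested. Mean levels were 0.269 CPM in Ctrlm and 0.256 CPM in cKOm kidneys, 0.315 CPM in Ctrlf and 0.383 CPM in cKOf kidneys, and all 4 groups overlapped. Part of its exons, 837 bases, lies opposite Ergic2, a gene with far more reads, so even these few reads are uncertain. Without the filter it differed by -0.08 on the log2 scale in males (SE 0.64) and by 0.26 in females (SE 0.62), and no difference was detectable at this depth.

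Tmem189 encodes plasmanylethanolamine desaturase, the enzyme that turns an ether lipid into a plasmalogen, and lies on chromosome 2 from 167642608 to 167689822, minus strand. It was at 111 to 138 CPM (median 121) in Ctrlm and at 64.0 to 83.0 CPM (median 76.2) in cKOm kidneys, with no overlap. The means were 122 ± 8.93 and 74.7 ± 6.24 CPM (SD, n = 6), 1.63-fold lower in cKOm mice, with a log2 fold change of -0.71 ± 0.09 (SE, adjusted p = 5.88e-06 in edgeR, exact permutation p = 0.00216). Females had 88.2 to 126 CPM (median 109) in Ctrlf and 82.1 to 116 CPM (median 98.0) in cKOf kidneys. The female groups overlapped, with a log2 fold change of -0.12 ± 0.09 (SE, adjusted p = 0.589 in edgeR). The male and female changes differed by -0.59 (interaction term of edgeR, adjusted p = 0.00838), and by -0.64 with an adjusted p of 0.0748 without the 5 male mice highest in hepatocyte transcripts. Its level has a limit of its own, since 694 of its exonic bases (21.3%) are also those of the read-through gene Gm20431, which had 0 reads in all kidneys, and 312 lie opposite Cebpb.

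The lysoplasmalogenase genes of the breakdown side did not pass the threshold in either sex. Tmem86b, on chromosome 7 from 4628040 to 4631422, minus strand, was at 10.4 to 16.8 CPM (median 10.9) in Ctrlm and 8.34 to 13.7 CPM (median 12.9) in cKOm kidneys. Its male change was 0.01 on the log2 scale with an SE of 0.15 (adjusted p = 0.984 in edgeR), a sign that turned under 6 of 11 other settings. In females it was at 10.997 to 21.6 CPM (median 15.7) in Ctrlf and 10.3 to 14.95 CPM (median 12.985) in cKOf kidneys, with a log2 fold change of -0.25 ± 0.15 (SE, adjusted p = 0.473 in edgeR). Tmem86a, on chromosome 7 from 47050601 to 47054777, plus strand, encodes the related enzyme. It was at 27.4 to 46.0 CPM (median 36.0) in Ctrlm and 27.0 to 33.4 CPM (median 30.9) in cKOm kidneys, with a log2 fold change of -0.29 ± 0.16 (SE, adjusted p = 0.388 in edgeR, unadjusted exact permutation p = 0.0368). Females ranged from 26.2 to 43.6 CPM (median 34.5) in Ctrlf and from 19.997 to 46.8 CPM (median 28.7) in cKOf kidneys, with a log2 fold change of -0.19 ± 0.16 (SE, adjusted p = 0.637 in edgeR).

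Of the 6 tested members, 3 were lower and 0 higher in cKOm than in Ctrlm mice, where 4.90% of all tested genes were lower and 9.05% were called in either direction. The same 3 genes, Agps, Far1 and Tmem189, did not overlap between Ctrlm and cKOm mice, which was so for 7.38% of all tested genes, and for 3.69% with cKOm mice the lower ones. The median log2 fold change was -0.38 over the 6 members and 0.01 over all genes tested. Between cKOf and Ctrlf mice, 0 of 6 members passed edgeR's threshold, against 0.851% of all genes, and 0 passed with limma-voom or DESeq2. An unadjusted edgeR p under 0.05 was found for 0 of 6 members, beside 1083 of all 16092 genes tested. The median over the members was -0.13 there and 0.00 over all genes. The change differed between the sexes for 2 of 6 members, Agps and Tmem189, against 2.31% of all genes, and for 1, Agps, without the 5 male mice highest in hepatocyte transcripts.

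**Figure D2:**
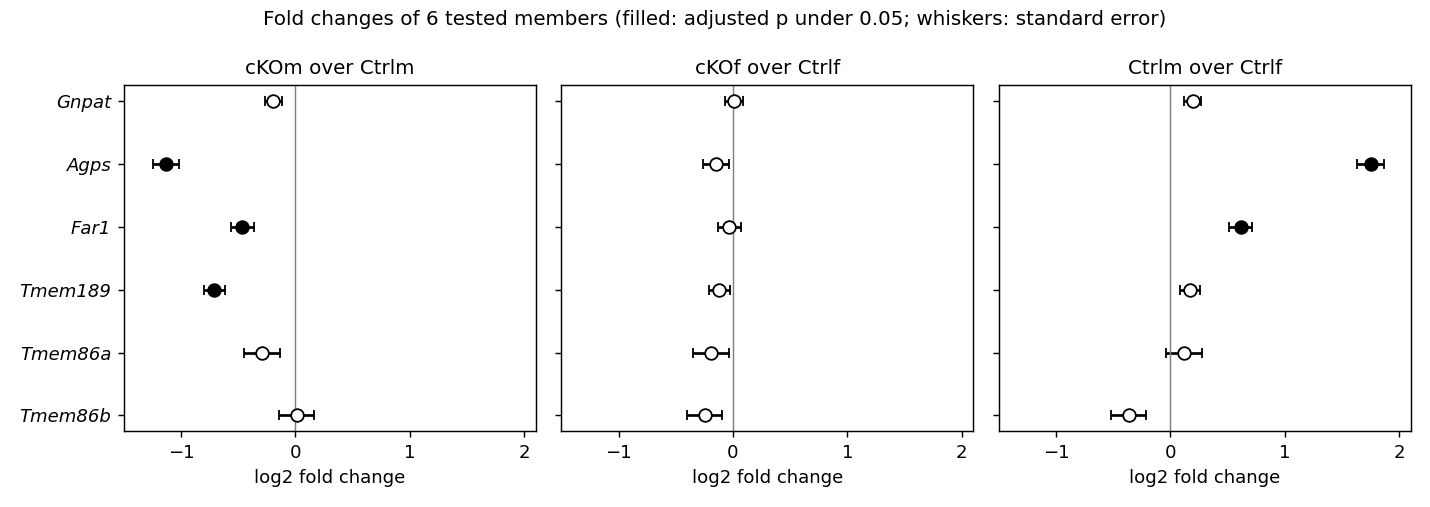
Log2 fold changes (horizontal axes) of the 6 tested members for cKOm over Ctrlm, cKOf over Ctrlf and Ctrlm over Ctrlf mice; points are edgeR estimates, whiskers are standard errors, and filled points have an adjusted p under 0.05. Agps (-1.13), Tmem189 (-0.71) and Far1 (-0.46) are filled to the left of 0 in males, none is filled in females, and Agps (1.75) and Far1 (0.62) are filled to the right of 0 between the sexes.

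Values of the 3 male differences were then set beside the hepatocyte transcripts of each kidney. Ctrlm 5 and 6, with hepatocyte sums of 394 and 431 CPM, had Agps at 424 and 383 CPM, above every cKOm mouse. The cKOm 4 mouse, with a hepatocyte sum of 851 CPM, had Agps at 191 CPM, among the other cKOm mice. With the hepatocyte score as a covariate the male log2 fold changes were -1.16 for Agps (edgeR, adjusted p = 4.06e-06), -0.67 for Tmem189 (adjusted p = 2.53e-04) and -0.52 for Far1 (adjusted p = 0.0124). Without the 5 mice they were -1.097 for Agps (adjusted p = 5.90e-04) and -0.76 for Tmem189 (adjusted p = 0.00368), and Far1, at -0.46, did not pass (adjusted p = 0.153). Proximal tubule markers also moved between Ctrlm and cKOm kidneys, and summed thick ascending limb markers ran from 3370 to 4286 CPM in Ctrlm and from 4044 to 4735 CPM in cKOm kidneys, with 1 of 4 higher. Hepatocyte sums were partly aligned with genotype, with a median of 1046 CPM in Ctrlm and 461 CPM in cKOm kidneys. The part of hepatocyte, proximal tubule or thick ascending limb transcripts in the member values was not tested.

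**Figure D3:**
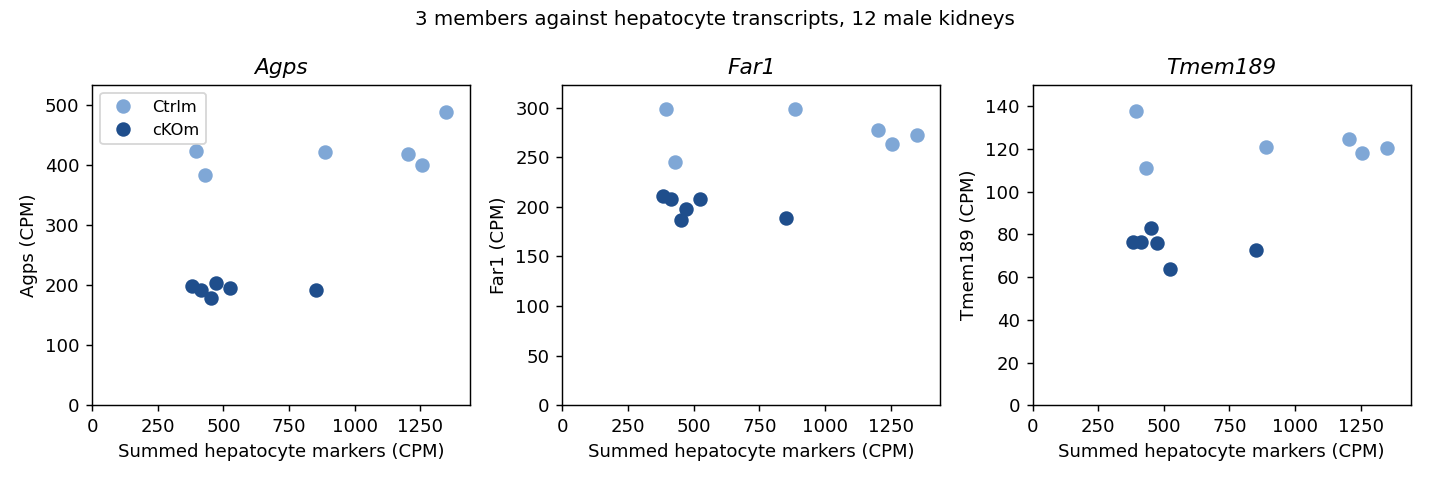
Levels of Agps, Far1 and Tmem189 (vertical axes, CPM from 0) against the summed CPM of 12 hepatocyte markers (horizontal axes) in 12 male kidneys; each point is a mouse. Ctrlm mice with 394 and 431 CPM of hepatocyte transcripts have Agps at 424 and 383 CPM, and cKOm mice are at 179 to 203 CPM.

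Some members also differed between males and females among the control mice. Agps was 3.36-fold higher in Ctrlm than in Ctrlf mice (1.75 on the log2 scale, SE 0.12, adjusted p = 5.68e-12 in edgeR), and Far1 was 1.53-fold higher (0.62, SE 0.10, adjusted p = 4.60e-05), each with no overlap between the groups, as for 7.35% of all tested genes. These 2 of 6 members stand against 16.8% of all tested genes called in either direction between the control sexes and 8.71% higher in males. The other log2 differences of Ctrlm over Ctrlf were 0.19 for Gnpat (edgeR adjusted p = 0.0824), 0.17 for Tmem189 (adjusted p = 0.221), 0.12 for Tmem86a (adjusted p = 0.688) and -0.36 for Tmem86b (adjusted p = 0.110). Gnpat passed without Ctrlf 5 (adjusted p = 0.0101) or Ctrlm 6 (adjusted p = 0.0371), and with DESeq2 on all mice (adjusted p = 0.0461), and Tmem86b without Ctrlm 1 (adjusted p = 0.0278). The Ctrlm mice enter both this comparison and that with cKOm mice, so the values of these comparisons are not independent of each other.

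Between cKOm and cKOf mice, Agps was again higher in males (0.77 on the log2 scale, SE 0.11, adjusted p = 3.26e-05 in edgeR), whereas Tmem189 was lower in males (-0.42, SE 0.09, adjusted p = 0.00285). Far1 did not pass there (0.18, SE 0.10, adjusted p = 0.297 in edgeR). These were 2 of 6 members, against 8.14% of all tested genes. The order of the 4 group levels was then taken for each member, and neighbours in these orders were compared over mice by exact permutation tests, not adjusted, in a family of 42 pairs. Agps ran from Ctrlm through cKOm to Ctrlf without overlap (p = 0.00216 at both steps, exact permutation test), and Ctrlf and cKOf overlapped (p = 0.372). Far1 separated Ctrlm from cKOm (exact permutation p = 0.00216), while cKOm and Ctrlf (p = 0.0693) and Ctrlf and cKOf (p = 0.820) overlapped. Tmem189 ran from Ctrlm through Ctrlf (exact permutation p = 0.0671) and cKOf (p = 0.281) to cKOm, the lowest group, where 1 cKOf mouse lay within the cKOm range (p = 0.00433). For Gnpat, Ctrlm stood above cKOf with overlap (exact permutation p = 0.0325), and the neighbours among cKOf, cKOm and Ctrlf had p of 0.907 and 0.989. No neighbours in the orders of Far2, Tmem86a and Tmem86b had an exact permutation p under 0.05, the lowest being 0.201 for Ctrlf and cKOf in Tmem86b.

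Levels of different genes were compared per kilobase of annotated exon, since a longer transcript gives more reads. Over all exon bases, Agps had the highest mean level of the members in Ctrlm kidneys, at 44.9 CPM per kb, before Tmem189 at 37.4 CPM per kb, Far1 at 34.3, Gnpat at 21.2, Tmem86a at 19.8, Tmem86b at 6.30 and Far2 at 0.0368. In cKOm kidneys the order was Far1 at 24.8 CPM per kb, Tmem189 at 22.9, Agps at 20.5, Gnpat at 18.6, Tmem86a at 16.2 and Tmem86b at 6.35. In Ctrlf kidneys Tmem189 led at 33.2 CPM per kb, Agps at 13.3 was below Far1, Gnpat and Tmem86a, and in cKOf kidneys Tmem189 led at 30.6 with Agps at 12.0. The products of Agps and Gnpat act one after the other, and the ratio of their levels per kb was 2.12 ± 0.229 in Ctrlm and 1.104 ± 0.0611 in cKOm kidneys, and 0.717 ± 0.109 in Ctrlf and 0.649 ± 0.118 in cKOf kidneys (SD, n = 6). The lowest Ctrlm ratio was 1.92 and the highest cKOm ratio was 1.15. Exon lengths joined all annotated transcripts of a gene, so that these levels depend on which transcripts the kidney uses. They also depend on the bases shared with neighbours on the same strand. Over its unshared exon bases, a setting added after seeing the data, Tmem189 was at 47.5 CPM per kb in Ctrlm and 29.1 CPM per kb in cKOm kidneys, above Agps and Far1, so the place of Tmem189 in the male orders depends on the length used. Gnpat was at 23.03 CPM per kb in Ctrlm and 20.2 CPM per kb in cKOm kidneys by that length, so its ratio to Agps also depends on it.

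The remaining genes of ether lipid metabolism were taken as a list of 34, all of which were tested. In males 3 were higher and 4 lower in cKOm mice, or 20.6%, beside the 9.05% of all tested genes, and the median log2 fold change was -0.01. The lowest was Cyb5a, cytochrome b5, an electron carrier for microsomal desaturases, which was at 595 to 1061 CPM in Ctrlm and at 415 to 490 CPM in cKOm kidneys without overlap, with a log2 fold change of -0.93 ± 0.10 (SE, adjusted p = 8.31e-07 in edgeR). The change in females was 0.02 (adjusted p = 0.965), and the sexes differed by -0.95 (interaction term of edgeR, adjusted p = 2.67e-04). Chpt1, choline phosphotransferase, fell by 0.52 on the log2 scale (adjusted p = 0.00116), from 1759 ± 199 CPM in Ctrlm to 1228 ± 87.5 CPM in cKOm kidneys (SD, n = 6). Pafah2, which hydrolyses platelet activating factor, an ether lipid, fell by 0.43 (edgeR adjusted p = 0.00844). Aldh3a2, which oxidizes the fatty aldehyde left when an ether bond is broken, fell by 0.29 (edgeR adjusted p = 0.00535), with a female change of 0.05 (adjusted p = 0.797) and a difference between the sexes of -0.34 (adjusted p = 0.0448). That last call was lost without 1 mouse in 14 of 24 cases, with an adjusted p of up to 0.0885, and in 4 of 9 other settings, with an adjusted p of up to 0.107.

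The genes of the list that rose were Etnk1, ethanolamine kinase, by 0.43 on the log2 scale (edgeR adjusted p = 0.0254), Lpcat3, which puts polyunsaturated acyl chains on lysophospholipids, by 0.44 (adjusted p = 0.00683), and Pla2g7, the secreted hydrolase of platelet activating factor, by 0.70 (adjusted p = 0.00397). Their levels were 244 ± 37.7 and 329 ± 14.6 CPM for Etnk1, 112 ± 22.2 and 152 ± 13.2 CPM for Lpcat3, and 15.5 ± 2.56 and 25.1 ± 2.71 CPM for Pla2g7 in Ctrlm and cKOm kidneys (SD, n = 6). These calls depended on the settings. With the hepatocyte score as a covariate the adjusted p was 0.193 for Etnk1, 0.120 for Lpcat3 and 0.0536 for Pla2g7 (edgeR), at log2 fold changes of 0.36, 0.35 and 0.62. The count of called list genes was then 4 in place of 7, where 5.49% of all tested genes were called. Without the 5 male mice highest in hepatocyte transcripts 3 list genes passed, Cyb5a, Chpt1 and Aldh3a2, where 3.75% of all tested genes were called, and Pafah2 was at -0.46 with an adjusted p of 0.151. Without Ctrlm 3 (adjusted p = 0.0698), Ctrlm 5 (0.0705), cKOm 3 (0.0525) or cKOm 5 (0.0731), Etnk1 did not pass, nor did it with the replicate number as a block (0.0564). In females 0 of 34 list genes passed with edgeR, where 0.851% of all tested genes did, and 0 with limma-voom or DESeq2. An unadjusted edgeR p under 0.05 was found for 1 of 34, beside 1083 of all 16092 genes tested. Dhrs7b, the reductase that follows AGPS, had log2 fold changes of -0.05 in males (adjusted p = 0.925) and 0.01 in females (adjusted p = 0.981), and Pex7, the import receptor of AGPS, had -0.09 (adjusted p = 0.636) and 0.04 (adjusted p = 0.867). They were named after their values were seen.

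**Figure D4:**
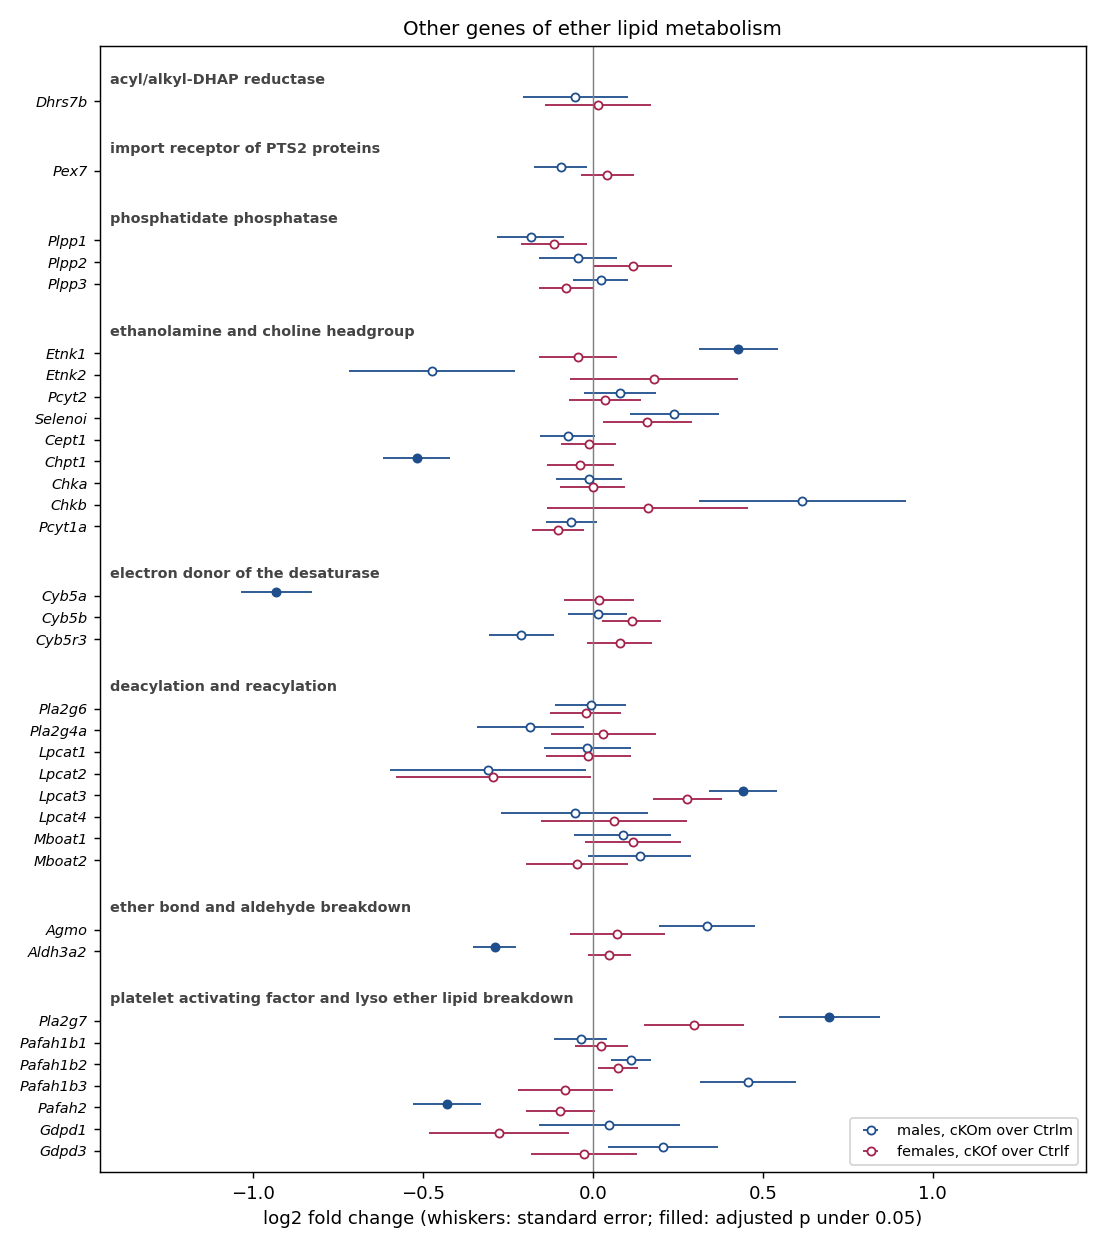
Log2 fold changes (horizontal axis) of the 34 other genes of ether lipid metabolism, grouped by role, for cKOm over Ctrlm and cKOf over Ctrlf mice; points are edgeR estimates, whiskers are standard errors, and filled points have an adjusted p under 0.05. The 7 filled points are all from males, with Cyb5a lowest (-0.93) and Pla2g7 highest (0.70).

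Between the control sexes, 14 of the 34 list genes passed, or 41.2%, beside 16.8% of all tested genes, with 8 higher and 6 lower in Ctrlm than in Ctrlf mice. All 3 genes of the electron donor role were among the higher ones, with log2 differences of 0.57 to 1.18. Cyb5a stood at 841 ± 156 CPM in Ctrlm and 371 ± 26.7 CPM in Ctrlf kidneys (SD, n = 6), and Aldh3a2 at 263 ± 12.6 and 136 ± 5.16 CPM. In the group for breakdown of platelet activating factor and of lyso ether lipids, 3 of 7 genes were lower in Ctrlm mice.

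For each tested member, the 2 protein-coding genes with the most similar log2 CPM over the 24 kidneys were found among 13868 genes. The points share the groups, so Pearson's r is given as a description, followed by r of deviations from the group means. Closest to Agps were Fmo5, a flavin monooxygenase (r = 0.963, within groups 0.564), and Slc22a22, an organic anion transporter (0.962 and 0.426). Fmo5 had a mean of 128 CPM in Ctrlm and 45.9 CPM in cKOm kidneys, against 14.2 CPM in Ctrlf and 16.4 CPM in cKOf kidneys, so that both male groups stood above both female groups, as for Agps. Closest to Far1 were the protein kinase gene Prkd3 (r = 0.930, within groups 0.764) and Chpt1 of the pathway list (0.927 and 0.746). Closest to Tmem189 were Gstm1, a glutathione transferase (r = 0.907, within groups 0.521), and the defensin gene Defb29 (0.891 and 0.694). Gstm1 had 329, 158, 286 and 258 CPM in Ctrlm, cKOm, Ctrlf and cKOf kidneys, so its lowest group was also cKOm. Gnpat was closest to the kinase gene Mark3 (r = 0.856, within groups 0.771) and to Txndc17 (0.837 and 0.743). Tmem86a was closest to Fpgs (0.768, within groups 0.750) and Dnajc30 (0.751 and 0.755), and Tmem86b to Gtpbp3 (0.709 and 0.715) and Nop2 (0.696 and 0.676). For these 2 breakdown genes the similarity was thus about as high within groups as over all kidneys.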

How the data were processed

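RNA of 24 whole kidneys was analysed. Per the labels, reads were trimmed with cutadapt 1.8, aligned with STAR 2.5.3a to GRCm38 and counted with HTSeq 0.9.1, and the authors deposited whole counts per gene for each kidney, without normalization. The strand setting of the counting was not given in the sources used here. Names and positions came from GENCODE M21 of GRCm38, which held 55154 of 55335 genes, and promoters from a RefSeq table. Ambiguous reads were 1.10% to 1.43% of ambiguous reads and reads on genes together. Reads on no gene were 6.49% to 9.35% of those and reads on genes together. Neither share includes what was counted as not uniquely aligned, from 8321461 in cKOf 1 to 12172720 in Ctrlm 2.

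Genes that reached 1 CPM in 1 kidney or more were tested in R 4.3.3 with edgeR 4.0.16 (TMM, quasi-likelihood, 1 model of 4 groups). The Benjamini-Hochberg adjustment ran over both genotype tests together, and over all genes for each other contrast, with a threshold of 0.05. The study used limma-voom, which was run as an alternative with limma 3.58.1, as was DESeq2 1.42.0. Single members were compared by exact permutation tests of CPM. The labels number the kidneys of a group as replicates, and these differed beyond counting error (chi-square over its degrees of freedom 9.24 to 91.1). In simulated data, where 200 of 16092 genes had a log2 change of 1, 166 were recovered with 3 false calls in males and 160 with 1 in females. That size exceeds the male changes of Far1 and Tmem189 and the female changes of all tested members. Recovery of changes as small as theirs was not measured.

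The members, the lists and the tests were chosen with earlier results of these data known, and the study itself had named Agps and Far1. Named are the members, Pex5, list genes past the threshold in a genotype comparison and the 2 genes most like each member, besides Dhrs7b and Pex7, named after their values were seen, and read-through and overlapping neighbours. The alternatives were 10 planned and 3 added after seeing the data.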

Additional observations from a re-analysis of the deposited data

Results flagged for a closer look

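Among 28 groups of 6 mice (7 genes in 4 groups), 4 held a mouse far from the other 5 by Dixon's test, which flags about 1 group in 20 by chance. Gnpat was at 79.4 CPM in Ctrlf 5 and at 59.1 to 66.0 CPM in the other Ctrlf mice. Far1 was at 130.4 CPM in Ctrlf 4 and at 179 to 207 CPM in the others of its group. Tmem86b was at 16.8 CPM in Ctrlm 1 against 10.4 to 12.7 CPM in the other Ctrlm mice, and at 8.34 CPM in cKOm 5 against 11.9 to 13.7 CPM in the other cKOm mice.

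The genotype effect differed between males and females for 4 of the genes followed (edgeR test of the interaction). These were 2 of 6 tested members and 2 of 34 list genes (5.88%), against 2.31% of all tested genes. The study proposes incomplete excision in cKOf mice, so sex and the extent of the deletion cannot be told apart here. The difference of the male and female log2 fold changes was -0.98 for Agps (adjusted p = 5.16e-04), -0.59 for Tmem189 (adjusted p = 0.00838), -0.95 for Cyb5a (adjusted p = 2.67e-04) and -0.34 for Aldh3a2 (adjusted p = 0.0448). Leaving out each mouse in turn moved it from -1.10 to -0.91 for Agps, from -0.65 to -0.54 for Tmem189, from -1.06 to -0.87 for Cyb5a and from -0.37 to -0.31 for Aldh3a2. The Aldh3a2 call was lost in 14 of these 24 cases, and the Tmem189 call without the 5 male mice highest in hepatocyte transcripts (adjusted p = 0.0748).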

How the results depend on the processing

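The male calls of Agps and Tmem189 held under each of 11 other settings and without each of 24 mice, with log2 fold changes of -1.19 to -1.08 for Agps and -0.77 to -0.67 for Tmem189. Without each mouse, 3 members passed in males, 0 in females, 2 or 3 for the interaction, 2 or 3 between Ctrlm and Ctrlf, 2 between cKOm and cKOf, and 6 to 8 list genes passed in males. On all mice, edgeR called 9.05% of all tested genes in males, 0.851% in females and 2.31% for the interaction. It called 16.8% between Ctrlm and Ctrlf and 8.14% between cKOm and cKOf. Pex5 in males ranged from -0.37 to -0.27 without each mouse, and gave -0.31 (edgeR adjusted p = 0.109) with the hepatocyte covariate. Without the 5 male mice highest in hepatocyte transcripts, Pex5 was at -0.26 (edgeR adjusted p = 0.382), 1 member passed for the interaction and 3 list genes in males, against 4 with the covariate. That setting leaves 2 Ctrlm mice, and the cause of these losses was not tested.

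Small values changed sign. Gnpat in females gave -0.0014 with every gene kept and -0.042 without Ctrlf 1 and 6, which also gave 0.00058 for Etnk1, 0.0041 for Chpt1 and -0.029 for Cyb5a in females. Tmem86b in males gave -0.0093 with DESeq2 and with RLE, -0.014 with every gene kept, -0.0097 with 1 CPM in 6 kidneys, -0.0080 with each sex alone and -0.012 without Ctrlf 1 and 6. Without each mouse, the female change ran from -0.027 to 0.068 for Gnpat, -0.12 to 0.041 for Far1, -0.14 to 0.034 for Etnk1, -0.12 to 0.022 for Chpt1, -0.056 to 0.060 for Cyb5a and -0.17 to 0.018 for Pafah2, the male change from -0.056 to 0.13 for Tmem86b, cKOm over cKOf from -0.052 to 0.028 for Gnpat and -0.076 to 0.19 for Tmem86a, and the interaction from -0.20 to 0.067 for Tmem86a.

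What mice of the same number in different groups share is not given by the labels. Over 36 such pairs the median correlation of deviations was -0.04, and over 180 pairs of other numbers it was 0.0036. Of 24 mice, 0 correlated best with a mouse of their own number. These values cannot show whether such mice shared a litter or a batch. With the replicate number as a block, 3 members passed in males (Agps -1.12, Far1 -0.46, Tmem189 -0.70), 0 in females and 2 for the interaction, and Pex5 was at -0.31 (edgeR adjusted p = 0.0405). Of all 16092 genes tested, that setting called 556 higher and 712 lower in males. It called 56 higher and 54 lower in females, and 88 higher and 183 lower for the interaction. Depth limited Far2, with at most 16 reads in a kidney.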
